A study of Mus musculus with 54 samples.

Results

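Gene expression in the retina of mice homozygous for the rd1 allele was followed across the ages at which their rods are lost. Of the 54 arrays of the study, 9 were compared. The early window held the 5 rd1 arrays of postnatal day (PN) 13 and 15, with 3 at PN13 and 2 at PN15. The late window held the 4 rd1 arrays of PN21, PN28 and PN35, with 2 at PN21 and 1 at each of the others. All mice were of the C3H strain, and the controls were wild-type (WT) C3H mice of the same ages, with 5 and 4 arrays. Neural retinas were dissected, and biotin-labelled cRNA from their total RNA was hybridised to oligonucleotide arrays. The arrays carry biological replicate numbers, and the animals behind each are not stated, so p-values measure the spread between arrays, which may be partly technical. PN28 and PN35 had 1 array per genotype and were assumed to vary like the replicated ages.

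As background, the rd1 allele disrupts Pde6b, which encodes the beta subunit of the rod cGMP phosphodiesterase. Without that enzyme cGMP builds up, the cyclic nucleotide-gated channels of the rod stay open, and the rods die within weeks of birth, while cones die later and the inner retina remains. Dying rods attract microglia, the phagocytes of neural tissue, and Müller glia, which span the retina, respond with acute-phase proteins and intermediate filaments.

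Each array gave an intensity per probe set, read here as log2 intensity for 18193 genes. Differences are log2 differences between group means, so that 1 is a doubling, and the value after the sign ± is the standard error of the fit. A gene is said to have risen or fallen where its Benjamini-Hochberg adjusted p from limma was under 0.05 (2-sided). From the early to the late window in rd1, 3651 genes rose and 2554 fell, together 34.1% of the genes tested (20.1% higher and 14.0% lower). The windows did not overlap for 10.8% of genes with all late arrays higher and 7.93% with all lower. Among the genes that passed the test, 90 rises and 216 falls were at least 2-fold, and the median over all genes was 0.018. Intensities are relative within an array. Centring each array on amacrine and ganglion cell genes lowered the difference of every gene alike, moved the median of all genes to -0.26 and changed the split to 834 higher and 11208 lower. The genes used for centring also changed with age in WT. There 8 of 17 ganglion cell genes fell and 2 rose, and 4 of 16 amacrine genes rose and 2 fell. Of all genes 14.5% rose and 15.3% fell in WT. Values are given as deposited. For a gene the centred value is added where it ends or makes a call or turns a direction, and for a list the centred counts are added where they differ. Centred counts of a list are to be read against the centred split of all genes in that comparison. Counts as deposited are to be read against the deposited shares, for the change in rd1 20.1% higher and 14.0% lower. With PN15 alone as the early window 2041 genes rose and 1159 fell.

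Some late arrays were high in genes of pigment epithelium and lens, tissues outside the neural retina. The source of these transcripts was not tested. The mean log2 intensity of 16 pigment epithelium genes was 6.79 to 6.96 at PN13, 7.12 to 7.40 at PN15, 8.40 to 8.41 at PN21, and 7.43 to 7.56 at PN28 and PN35, against 6.92 to 7.41 over the WT arrays of these ages. Both PN21 arrays stood above the other 7 rd1 arrays. The mean of 16 lens genes was 10.12 in PN21 replicate 1 and 9.30 at PN35, 6.67 in PN21 replicate 2, 7.72 at PN28 and 6.51 to 7.36 in the early rd1 arrays. In WT it was 6.62 to 7.50 at PN13-15, 7.85 to 8.19 at PN21 and 6.39 to 7.63 at PN28 and PN35, so that both WT PN21 arrays were above the rd1 array of PN28.

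All 23 rod genes of the list fell, with a median of -2.80. In WT over the same ages 13 of them rose and 1 fell, with a median of 0.23, or 8 and 1 after centring (29.7% of all genes differed, 14.5% higher and 15.3% lower in WT). The change in rd1 was below that in WT for 23 of 23 (24.5% of all genes differed, 15.9% higher and 8.64% lower in rd1). In retinal homogenate, fewer rods and less RNA per rod cannot be told apart. All 23 were below WT already at PN13-15, with a median of -0.97 (22.7% of all genes differed, 13.8% higher and 8.89% lower), and all 23 at PN21-35, with a median of -4.44 (46.1% of all genes differed, 29.2% higher and 16.9% lower). The list mean was 11.39, 11.39 and 11.42 at PN13, 10.33 and 10.79 at PN15, 8.41 and 8.45 at PN21, 7.91 at PN28 and 7.69 at PN35, against 11.93 to 12.35 in WT. Within PN15, replicate 1 was lower than replicate 2.

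Pde6b, the mutated gene (chr5:108388373-108431743, GRCm38.p6), was at 11.42, 11.23 and 11.43 at PN13, 9.70 and 10.55 at PN15, 7.15 and 7.02 at PN21, 6.35 at PN28 and 6.21 at PN35. The WT arrays were at 13.14 to 13.32 at PN13-15 and 13.38 to 13.41 at PN21-35. Every rd1 array lay below every WT array, and every late rd1 array below every early one. Pde6b fell by 4.18 ± 0.14 (adjusted p = 1.14e-25) between the windows, and at PN13-15 it stood at -2.33 ± 0.13 (adjusted p = 1.89e-17) relative to WT.

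Nrl, the transcription factor that directs photoreceptor precursors to rod fate, had the largest fall among genes whose windows did not overlap. Its promoter and that of Cnga1 are shown because CRX, a homeodomain factor of photoreceptors, is known to bind TAATCC. Each sequence runs from 250 bases before to 50 after the gene's start in RefSeq (GRCm38.p6), 5′ to 3′ on the gene's strand. Capitals mark TAATCC or its reverse complement. The Nrl window is chr14:55524203-55524502, minus strand. The Cnga1 window is chr5:72642703-72643002, minus strand, and it was chosen after values were seen, as that of the rod gene with the largest fall whose promoter holds the motif.

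Nrl: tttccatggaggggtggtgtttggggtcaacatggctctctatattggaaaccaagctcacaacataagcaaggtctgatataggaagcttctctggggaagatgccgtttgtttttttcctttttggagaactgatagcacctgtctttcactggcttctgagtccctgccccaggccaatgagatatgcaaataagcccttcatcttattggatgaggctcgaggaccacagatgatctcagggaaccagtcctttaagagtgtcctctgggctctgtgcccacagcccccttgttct
Cnga1: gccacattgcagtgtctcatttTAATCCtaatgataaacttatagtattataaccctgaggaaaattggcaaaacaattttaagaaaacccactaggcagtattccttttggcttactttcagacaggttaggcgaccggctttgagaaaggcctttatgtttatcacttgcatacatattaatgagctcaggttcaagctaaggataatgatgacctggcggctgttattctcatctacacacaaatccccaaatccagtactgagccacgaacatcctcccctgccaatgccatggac

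TAATCC is not in the Nrl window and is in the Cnga1 window once, starting 228 bases before the start. It was found on either strand in 5 of 14 rod promoters that the reference holds (35.7%) and in 7 of 20 promoters of genes shared by rods and cones (35%), against 6.03% of 14452 promoters. TGCTGA, part of the NRL site, was in 3 of 14 rod promoters (21.4%), against 17.2% of all. TAATCC was also in 5 of 11 pigment epithelium promoters (45.5%), a list in which 12 of 16 genes rose. It was in 3 of 12 cone (25%), 4 of 17 bipolar (23.5%) and 0 of 7 ganglion cell promoters. A match describes letters and is not evidence of a bound site, and a part of the motif in the fall of rod genes was not tested.

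Nrl was at 12.97, 12.99 and 13.00 at PN13, 11.90 and 12.36 at PN15, 9.07 and 8.87 at PN21, 7.57 at PN28 and 7.20 at PN35, and in WT at 13.37 to 13.48 at PN13-15 and 13.51 to 13.61 at PN21-35. The fall of 4.46 ± 0.05 (adjusted p = 2.68e-42) was 22.1-fold. Gnat1, the alpha subunit of rod transducin (chr9:107674437-107679634), was at 13.59, 13.71 and 13.65 at PN13, 12.94 and 13.43 at PN15, 10.33 and 10.30 at PN21, 8.29 at PN28 and 7.67 at PN35. It did not pass the test between PN13 and PN15 (-0.47 ± 0.25, adjusted p = 0.233) but did after centring (-0.89, adjusted p = 0.00131), and between the windows it fell by 4.32 ± 0.19 (adjusted p = 7.47e-22). Cnga1, the alpha subunit of the rod cyclic nucleotide-gated channel, was at 11.10, 11.10 and 11.15 at PN13, 9.60 and 10.13 at PN15, 6.84 and 6.88 at PN21, 6.30 at PN28 and 5.70 at PN35. Both PN15 arrays were below all 3 PN13 arrays, and Cnga1 fell by 4.18 ± 0.081 (adjusted p = 1.92e-33) between the windows.

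Other parts of the phototransduction cascade fell as well. Cngb1, the beta subunit of the same channel, fell by 3.72 ± 0.074. Pde6a, the alpha subunit of the phosphodiesterase, fell by 3.37 ± 0.15. Slc24a1, the rod exchanger that carries calcium out, fell by 3.93 ± 0.18. Guca1b, an activator of guanylate cyclase, fell by 3.08 ± 0.13, and Rcvrn, the calcium sensor recoverin, by 2.80 ± 0.093. The disc rim proteins Prph2 and Rom1 fell by 2.45 ± 0.13 and 2.18 ± 0.079. Sag, arrestin, fell by 1.63 ± 0.055, and late rd1 arrays held it at 12.00 to 12.49, against 14.24 to 14.34 in WT. The smallest fall was that of Gnb1, a G protein beta subunit used in many cells, at -0.95 ± 0.044 (adjusted p = 6.59e-21).

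The step from PN15 to PN21 held the largest median fall of the 3 steps between ages. These steps span unequal numbers of days, and falls per day were not compared. From PN13 to PN15, 21 of 23 rod genes fell (median -0.86), or 23 after centring, where 16.9% of all genes differed, 6.78% higher and 10.1% lower. From PN15 to PN21 23 fell (median -2.09), where 13.3% of all genes differed, 8.46% higher and 4.85% lower. From PN21 to PN28-35 11 fell (median -0.60), or 6 after centring, where 0.841% of all genes differed, 0.126% higher and 0.715% lower. Gnat1 and Nrl were among these late falls, at -2.34 ± 0.28 (adjusted p = 4.99e-07) and -1.58 ± 0.074 (adjusted p = 8.87e-19).

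**Figure D1:**
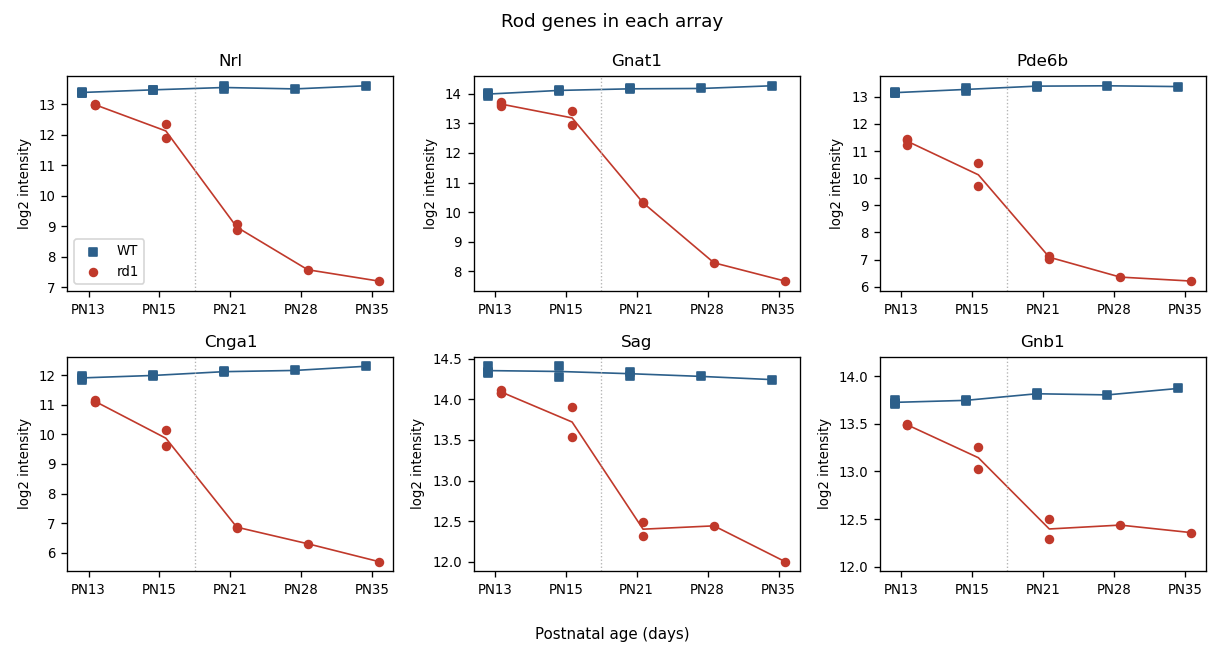
Log2 intensity of 6 rod genes (vertical axis) in each array by postnatal age in days (horizontal axis), rd1 as red circles and WT as blue squares, with lines through the means of each age and a dotted line between the windows. Nrl lay at 11.90 to 13.00 in the early and 7.20 to 9.07 in the late rd1 arrays, while Gnb1 lay at 13.03 to 13.49 and 12.29 to 12.51.

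Of 24 genes active in both rods and cones, 22 fell and 2 rose (median -1.51), or 22 and 1 after centring. Rdh12, a retinol dehydrogenase of inner segments, fell by 3.06 ± 0.099. Impg1, a component of the matrix between photoreceptors, fell by 2.88 ± 0.12, and Crx by 1.18 ± 0.05. The genes that rose were Faim2, an inhibitor of Fas-driven death, by 1.05 ± 0.12 (0.68 from PN15 alone), and Guca1a, a cyclase activator that cones also use, by 0.32 ± 0.087. Guca1a was at 0.043 (adjusted p = 0.618) after centring, and its rise in WT was 1.50 ± 0.087.

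Mef2c, a transcription factor of maturing photoreceptors, changed in opposite directions in the genotypes. It was at 7.50, 7.50 and 7.40 at PN13, 7.60 and 7.41 at PN15, 6.92 and 6.79 at PN21, 6.93 at PN28 and 6.87 at PN35 in rd1, and in WT at 7.24 to 8.75 at PN13-15 and 10.27 to 10.86 at PN21-35. It fell by 0.60 ± 0.085 (adjusted p = 2.44e-07) in rd1 and rose by 2.58 ± 0.085 in WT, and the changes differed by -3.19 ± 0.12 (adjusted p = 4.03e-23). Hk2, the hexokinase abundant in photoreceptors, rose by 1.79 ± 0.087 in WT. In rd1 it was at 9.75 to 10.20 in the early and 9.71 to 10.17 in the late arrays, a difference of 0.042 ± 0.087 (adjusted p = 0.769) that turned to -0.23 after centring.

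Of 20 ribbon synapse genes, 7 fell and 5 rose on the deposited scale (median -0.073), where 14.0% of all genes fell and 20.1% rose. From PN15 alone 1 rose, where 2041 of 18193 genes did. After centring 1 was higher and 14 lower (median -0.35). Egflam, the protein pikachurin of the photoreceptor terminal, was at 10.39, 10.17 and 10.23 at PN13, 9.18 and 9.38 at PN15, 7.83 and 8.05 at PN21, 7.86 at PN28 and 7.84 at PN35. Its windows did not overlap, and it fell by 1.97 ± 0.067 (adjusted p = 2.17e-25). Cplx4, the complexin of rod and cone terminals, fell by 1.40 ± 0.097. Slc17a7, the vesicular glutamate transporter of photoreceptors and bipolar cells, fell by 0.92 ± 0.12. Cplx3, found in cones and amacrine cells, rose by 0.44 ± 0.053, or 0.16 after centring.

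Of 16 cone genes 7 rose and 1 fell (median 0.074), where 20.1% of all genes rose and 14.0% fell. After centring 4 were higher and 7 lower, and from PN15 alone 2 rose, where 2041 of 18193 genes did. Opn1sw, the short-wavelength opsin, was at 12.33, 12.15 and 12.25 at PN13, 12.41 and 12.31 at PN15, 12.15 and 12.26 at PN21, 12.53 at PN28 and 12.45 at PN35. The windows overlapped, with a difference of 0.058 ± 0.066 (adjusted p = 0.567) that turned to -0.22 (adjusted p = 0.00299) after centring. In WT Opn1sw rose by 0.63 ± 0.066, and the changes differed by -0.57 ± 0.093 (adjusted p = 8.87e-06). Opn1mw, the middle-wavelength opsin, was at 10.83 to 11.38 in the early and 10.89 to 11.28 in the late arrays, a difference of -0.032 ± 0.18 (adjusted p = 0.92).

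Pde6c, the cone phosphodiesterase, had the largest rise among the cone genes. It was at 9.23, 9.11 and 9.41 at PN13, 9.76 and 9.30 at PN15, 10.48 and 10.48 at PN21, 10.12 at PN28 and 10.14 at PN35, with every late array above every early one. The rise was 0.94 ± 0.081 (adjusted p = 1.64e-12), and the difference from the change in WT was 1.08 ± 0.11 (adjusted p = 1.05e-09). Gnat2, the alpha subunit of cone transducin, rose by 0.76 ± 0.056 in rd1, or 0.48 after centring, and by 0.84 ± 0.056 in WT. The difference between these changes was -0.078 ± 0.079 (adjusted p = 0.531), or -0.34 (adjusted p = 0.00754) after centring.

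Immediate early genes, which cells switch on within minutes of a stimulus, were high in the early rd1 arrays, and many fell. Of 23, 12 fell and 1 rose (median -0.26), and without both arrays high in lens genes 11 fell. After centring 19 were lower and 0 higher. The gene that rose was Nr4a3, by 0.20 ± 0.065, which turned to -0.078 after centring. At PN13-15, 13 of 23 stood above WT and 1 below (13.8% and 8.89% of all genes). At PN21-35 4 stood above and 4 below (29.2% and 16.9% of all genes). After centring these counts were 7 and 7, then 1 and 20. Over all 18193 genes the centred counts were 272 above and 12129 below WT at PN13-15, then 712 and 15024. The change in rd1 was below that in WT for 12 genes and above it for 2 (8.64% and 15.9% of all genes), or 15 and 0 after centring. Over all genes the centred counts were 6605 below and 404 above.

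Fos, which pairs with Jun in the AP-1 factor, had the largest fall of this list. Its promoter, chr12:85473640-85473939, plus strand, is shown over the same span around the start. The motif searched was TGACGTCA, the full cyclic AMP response element.

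Fos: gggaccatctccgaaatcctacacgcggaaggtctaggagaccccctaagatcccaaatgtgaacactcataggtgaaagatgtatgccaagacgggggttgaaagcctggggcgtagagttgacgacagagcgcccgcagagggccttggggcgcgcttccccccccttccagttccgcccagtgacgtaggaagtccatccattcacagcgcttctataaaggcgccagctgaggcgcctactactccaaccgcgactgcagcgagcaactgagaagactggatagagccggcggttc

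TGACGTCA is in this window on neither strand, so no base is in capitals. It was in 2 of 17 immediate early promoters (11.8%), those of Btg2 and Dusp1, against 2.68% of all promoters. Fos was at 11.89, 11.96 and 12.08 at PN13, 11.04 and 11.56 at PN15, 9.67 and 9.67 at PN21, 9.67 at PN28 and 9.46 at PN35, and in WT at 9.26 to 9.81 at PN13-15 and 9.33 to 10.05 at PN21-35. All 5 early rd1 arrays were above all 9 WT arrays, and the 4 late rd1 arrays lay within the WT range. Fos fell by 2.09 ± 0.13 (adjusted p = 6.72e-17), having stood 2.23 ± 0.12 above WT at PN13-15.

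Egr1, a zinc finger factor, was at 12.26, 12.33 and 12.31 at PN13, 11.40 and 11.76 at PN15, 9.98 and 9.91 at PN21, 10.01 at PN28 and 9.86 at PN35. Its windows did not overlap, and it fell by 2.07 ± 0.16 (adjusted p = 3.15e-14). Fosb, a paralog of Fos, fell by 1.81 ± 0.098, and the nuclear receptor Nr4a1 by 1.38 ± 0.085. Both had begun to fall from PN13 to PN15, by 1.18 ± 0.13 and 0.85 ± 0.12, and from PN15 alone they differed by -1.10 and -0.87. Jun fell by 0.95 ± 0.15 in rd1 and by 1.18 ± 0.15 in WT, and the means of its probe sets gave -0.36 and -0.73.

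The inducible Hsp70 genes Hspa1b and Hspa1a fell, Hspa1b from above to below WT. Of 14 heat shock genes 3 fell and 1 rose (median -0.0036), where 14.0% of all genes fell and 20.1% rose. After centring 11 were lower and 0 higher. The centred median was -0.28, against -0.26 over all genes. Hspa1b and Hspa1a, which had the largest falls, are neighbouring copies that encode nearly the same chaperone, and their probe sets may share signal. The promoter of Hspa1b, chr17:34959189-34959488, minus strand, is shown because it holds GAANNTTC, the core of the heat shock element. Gene and motif were chosen after values were seen. Capitals mark the match, which starts 104 bases before the start.

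Hspa1b: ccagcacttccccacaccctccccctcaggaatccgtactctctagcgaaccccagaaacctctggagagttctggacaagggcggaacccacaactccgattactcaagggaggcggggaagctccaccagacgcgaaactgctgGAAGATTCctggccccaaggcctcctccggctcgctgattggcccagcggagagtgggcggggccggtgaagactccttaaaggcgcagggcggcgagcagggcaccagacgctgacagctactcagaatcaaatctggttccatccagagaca

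GAANNTTC was in 8 of 11 heat shock promoters (72.7%), against 6.34% of all promoters. Hspa1b was at 10.68, 10.56 and 10.60 at PN13, 9.49 and 9.81 at PN15, 7.24 and 7.15 at PN21, 6.99 at PN28 and 7.20 at PN35, and in WT at 8.62 to 9.42 at PN13-15 and 9.43 to 9.79 at PN21-35. The PN13 rd1 arrays were above every WT array, and the late rd1 arrays below every one. Hspa1b fell by 3.08 ± 0.12 (adjusted p = 2.1e-23), which is 8.45-fold. It stood 1.21 ± 0.11 above WT at PN13-15 and at -2.45 ± 0.13 (adjusted p = 8.99e-20) relative to WT at PN21-35. Hspa1a fell by 2.31 ± 0.16 (adjusted p = 3.72e-15). The constitutive chaperone Hspa8 differed by 0.036 ± 0.048 (adjusted p = 0.639), which turned to -0.24 after centring.

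**Figure D2:**
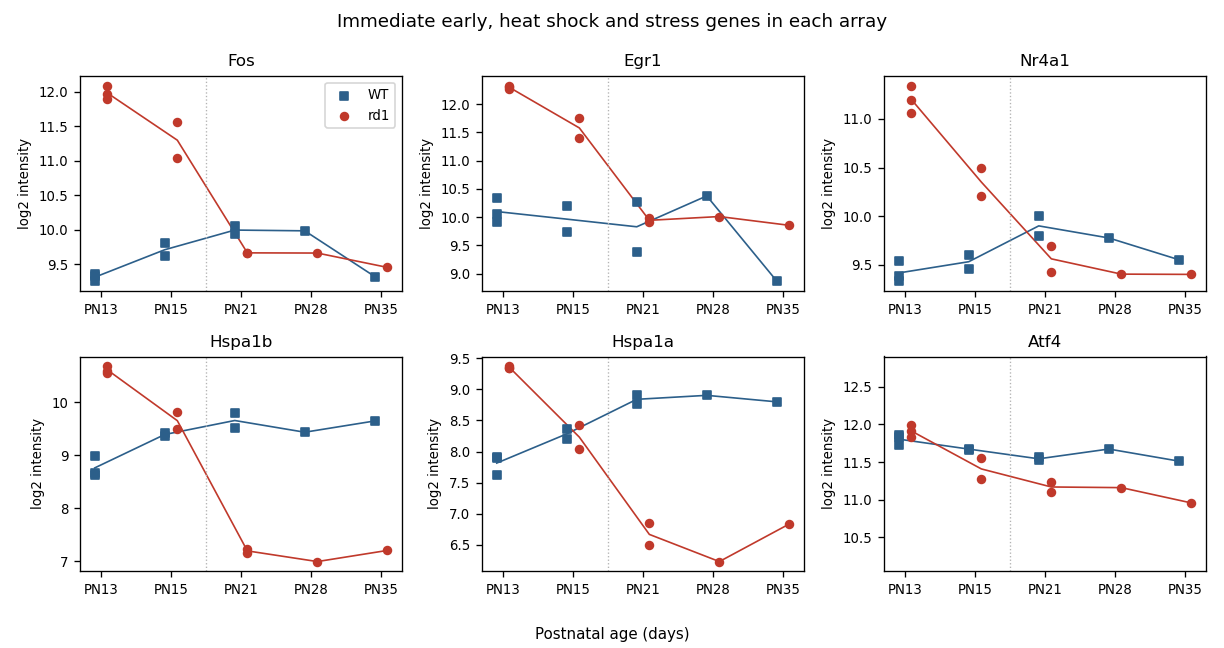
Log2 intensity of 3 immediate early genes, 2 inducible Hsp70 genes and Atf4 (vertical axis) in each array by postnatal age in days (horizontal axis), rd1 as red circles and WT as blue squares, with lines through the means of each age and a dotted line between the windows. The late rd1 arrays lie within the WT range for Fos (9.46 to 9.67) and below it for Hspa1b (6.99 to 7.24 against 9.43 to 9.79).

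Of 21 genes of the endoplasmic reticulum stress response 9 fell and 4 rose (median -0.15), where 14.0% of all genes fell and 20.1% rose. Without both arrays high in lens genes 5 fell. After centring 17 were lower and 2 higher (median -0.42). Atf4, a transcription factor of this response, was at 11.99, 11.83 and 11.91 at PN13, 11.27 and 11.55 at PN15, 11.10 and 11.24 at PN21, 11.16 at PN28 and 10.96 at PN35. The windows did not overlap, and it fell by 0.60 ± 0.052 (adjusted p = 2.27e-12), or -0.30 from PN15 alone and -0.39 as the mean of its probe sets. Trib3, a target of Atf4, fell by 0.59 ± 0.069, or -0.34 from PN15 alone. Herpud1, a factor of protein degradation at the reticulum, rose by 0.74 ± 0.061, or 0.46 after centring.

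Chac1, a glutathione-degrading enzyme induced by Atf4, persisted above WT. It was at 8.30 to 8.53 in the early and 8.19 to 8.36 in the late rd1 arrays, and all 9 stood above the WT range of 7.31 to 7.56. The change with age was -0.15 ± 0.074 (adjusted p = 0.122), or -0.43 (adjusted p = 0.000274) after centring. The difference from WT was 0.96 ± 0.07 (adjusted p = 3.69e-14) at PN13-15 and 0.88 ± 0.078 (adjusted p = 1.7e-12) at PN21-35, the latter 0.34 after centring.

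Of 24 cell death genes 7 fell and 3 rose (median -0.0015), where 14.0% of all genes fell and 20.1% rose. From PN15 alone 2 fell, where 1159 of 18193 genes did. After centring 17 were lower and 0 higher (median -0.28, against -0.26 over all genes). Bak1, a pore-forming protein of mitochondria, fell by 0.69 ± 0.13 in rd1 and 0.68 ± 0.13 in WT, and the means of its probe sets gave -0.34 and -0.29. Of 14 genes of the proteasome core 1 fell and 0 rose (14.0% and 20.1% of all genes). After centring 13 were lower (median -0.26, as over all genes). The core gene that fell was Psma4, by 0.14 ± 0.053, and it was at -0.036 (adjusted p = 0.759) without both arrays high in lens genes.

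Microglial genes fell between PN15 and PN21. Of 28 genes of microglia and macrophages 18 fell and 4 rose between the windows (median -0.41), or 21 and 1 after centring. From PN15 to PN21 16 fell and 1 rose, with the same counts after centring. From PN13 to PN15 15 rose and 0 fell, and after centring 3 and 3. The median of the list in that step was 0.30, against 0.0009 over all genes, and after centring it was -0.12, against -0.42. Relative to WT 23 of 28 were higher and 0 lower at PN13-15 (13.8% and 8.89% of all genes), or 22 and 1 after centring. At PN21-35 21 were higher and 0 lower (29.2% and 16.9% of all genes), or 7 and 12 after centring. Centring moved the median of all genes in that comparison to -0.54. The list mean was 7.50, 7.53 and 7.53 at PN13, 7.84 and 7.93 at PN15, 7.45 and 7.39 at PN21, 7.19 at PN28 and 7.25 at PN35, and 6.75 to 6.93 in WT. The PN15 arrays were the highest, and every rd1 array was above every WT array.

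Cd68, a lysosomal membrane protein of active phagocytes, had the largest fall of the list. Its promoter, chr11:69666121-69666420, minus strand, is shown with matches to TGANTCA, an AP-1 site, in capitals, a motif chosen for it after values were seen. They start 149 and 24 bases before the start.

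Cd68: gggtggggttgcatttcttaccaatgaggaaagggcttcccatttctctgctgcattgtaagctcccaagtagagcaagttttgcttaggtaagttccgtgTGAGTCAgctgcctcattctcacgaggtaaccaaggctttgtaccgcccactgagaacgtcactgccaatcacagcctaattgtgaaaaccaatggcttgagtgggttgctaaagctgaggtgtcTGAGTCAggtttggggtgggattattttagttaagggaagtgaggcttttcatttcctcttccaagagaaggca

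TGANTCA was in 5 of 21 promoters of the microglial list (23.8%), against 6.33% of all promoters. GAGGAAGT, a site of the myeloid factor PU.1, was in 2 of 21 (9.52%), against 2.93%, and is not in the window of Cd68. Cd68 was at 8.17, 8.14 and 8.38 at PN13, 8.07 and 8.36 at PN15, 6.76 and 7.03 at PN21, 6.77 at PN28 and 6.83 at PN35, and in WT at 6.26 to 6.59 at PN13-15 and 5.99 to 6.27 at PN21-35. The rd1 windows did not overlap, and all 9 rd1 arrays were above all 9 WT arrays. Cd68 fell by 1.38 ± 0.089 (adjusted p = 4.03e-16). At PN21-35 it was 0.69 ± 0.094 above WT, or 0.15 (adjusted p = 0.167) after centring.

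Tyrobp, the adaptor DAP12 that carries signals of myeloid receptors, was at 8.59, 8.53 and 8.70 at PN13, 8.83 and 9.02 at PN15, 7.94 and 7.80 at PN21, 7.33 at PN28 and 7.43 at PN35. The PN15 arrays were the highest of the 9, and Tyrobp fell by 1.11 ± 0.081 (adjusted p = 1.46e-14). Cst7, a cathepsin inhibitor of activated microglia, fell by 1.12 ± 0.064, and Lyz2, lysozyme, by 1.05 ± 0.068. Csf1r, the receptor on which microglia depend for survival, was at 10.14, 9.996 and 10.13 at PN13, 10.81 and 10.89 at PN15, 10.27 and 10.21 at PN21, 9.70 at PN28 and 10.06 at PN35. The PN13 and late arrays overlapped. It fell by 0.33 ± 0.063 (adjusted p = 4.44e-05), with -0.21 without PN15 replicate 2 and -0.21 without the PN28 array, and from PN13 alone the difference was -0.026 (adjusted p = 0.83). At PN21-35 Csf1r was 1.06 ± 0.066 above WT, or 0.52 after centring.

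Ctss, cathepsin S, followed another course. It was at 9.69, 9.91 and 9.997 at PN13, 11.06 and 10.96 at PN15, 10.85 and 11.04 at PN21, 10.48 at PN28 and 10.60 at PN35, lowest in the 3 PN13 arrays. It rose by 0.42 ± 0.077 (adjusted p = 2.07e-05) between the windows, 0.26 without PN13 replicate 1, and the step from PN13 to PN15 was 1.14 ± 0.10 (adjusted p = 2.4e-10). From PN15 alone the difference turned to -0.26 (adjusted p = 0.0589), and after centring it was 0.14 (adjusted p = 0.139). Gpnmb, a glycoprotein of phagocytes and of pigment cells, rose by 0.71 ± 0.083, or 0.42 with PN28 and PN35 alone as the late window. It was at 8.23 to 8.34 at PN21 and 7.69 to 7.70 at PN28 and PN35, and the pigment epithelium mean was also highest at PN21. The part of pigment epithelium in this rise was not tested.

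C1qa, a chain of the C1q molecule with which microglia start the classical complement cascade (chr4:136895916-136898844), was at 10.21, 10.20 and 10.38 at PN13, 10.89 and 11.15 at PN15, 9.90 and 10.26 at PN21, 9.56 at PN28 and 9.46 at PN35. WT arrays were at 8.19 to 8.92 at PN13-15 and 8.11 to 8.47 at PN21-35. It was highest at PN15 and lowest at PN28 and PN35, and no rd1 array reached the WT range. C1qa fell by 0.78 ± 0.084 (adjusted p = 7e-10), with -1.23 from PN15 alone and -0.47 from PN13 alone. At PN21-35 it was 1.50 ± 0.089 (adjusted p = 1.07e-17) above WT, or 0.95 after centring. C1qc, another chain, fell by 0.97 ± 0.073. Of 19 complement and chemokine genes 4 fell and 2 rose (median -0.02), where 14.0% of all genes fell and 20.1% rose. After centring 11 were lower and 2 higher. The centred median was -0.30, against -0.26 over all genes.

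Serping1, the inhibitor of C1, was at 7.53, 7.51 and 7.77 at PN13, 9.19 and 8.81 at PN15, 8.99 and 9.36 at PN21, 8.60 at PN28 and 9.08 at PN35. It was low at PN13 and high from PN15 on. The rise was 0.84 ± 0.10 (adjusted p = 1e-08), 0.84 (adjusted p = 0.0724) with the spread between ages in the error, and 0.007 (adjusted p = 0.985) from PN15 alone. Of 22 lysosomal and autophagy genes 8 fell and 4 rose (median -0.0044), where 14.0% of all genes fell and 20.1% rose. There were 5 falls without both arrays high in lens genes and 2 rises without PN13 replicate 2. After centring 14 of this list were lower and 1 higher (median -0.28, against -0.26 over all genes). Ctsd, cathepsin D, fell by 0.47 ± 0.05 (-0.76 from PN15 alone), and Grn, progranulin, by 0.39 ± 0.061 (-0.70 from PN15 alone).

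Most reactive glial genes stood above WT in both windows. Relative to WT 17 of 23 were higher and 0 lower at PN13-15 (median 0.78), or 15 and 3 after centring. At PN21-35 18 were higher and 2 lower (median 0.89), or 12 and 5. Of all genes 13.8% were higher and 8.89% lower at PN13-15, and 29.2% and 16.9% at PN21-35. The centred counts of all genes were 272 higher and 12129 lower, then 712 and 15024. Between the windows 8 rose and 3 fell (median 0.093), or 6 and 9 after centring. Gfap, the intermediate filament of reactive Müller glia and astrocytes, was at 9.36, 9.13 and 9.72 at PN13, 9.55 and 9.89 at PN15, 8.96 and 9.57 at PN21, 9.06 at PN28 and 9.48 at PN35, and in WT at 7.31 to 7.77 at PN13-15 and 7.49 to 7.70 at PN21-35. The rd1 windows overlapped, with a difference of -0.26 ± 0.15 (adjusted p = 0.201), or -0.54 (adjusted p = 0.00352) after centring. Gfap was 1.69 ± 0.16 above WT at PN21-35. S100a6, a calcium-binding protein, was at 7.92 to 8.37 in the early and 7.94 to 8.23 in the late rd1 arrays, against 5.05 to 5.76 in WT.

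Edn2, endothelin 2, a peptide that stressed photoreceptors are known to make and that acts on Müller glia, had the largest fall of this list. Its promoter, chr4:120160956-120161255, plus strand, was searched for TGANTCA, which it does not hold, so no base is in capitals.

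Edn2: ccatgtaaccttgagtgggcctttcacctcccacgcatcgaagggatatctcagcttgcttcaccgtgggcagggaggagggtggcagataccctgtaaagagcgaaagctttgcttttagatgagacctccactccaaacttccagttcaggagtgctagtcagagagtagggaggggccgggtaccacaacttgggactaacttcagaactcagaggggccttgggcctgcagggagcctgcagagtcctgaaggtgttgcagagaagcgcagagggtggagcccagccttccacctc

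TGANTCA was in 5 of 21 promoters of the reactive glial list (23.8%). Edn2 was at 7.10, 7.43 and 7.56 at PN13, 7.12 and 7.53 at PN15, 5.62 and 5.83 at PN21, 5.54 at PN28 and 5.53 at PN35, and in WT at 5.47 to 5.55 at PN13-15 and 5.74 to 6.38 at PN21-35. Every early rd1 array was above every WT array, and the late rd1 arrays were not. Edn2 fell by 1.72 ± 0.12 (adjusted p = 1.77e-15) in rd1 and rose by 0.54 ± 0.12 in WT, and the changes differed by -2.26 ± 0.17 (adjusted p = 3.71e-14). At PN21-35 rd1 was at -0.42 ± 0.12 (adjusted p = 0.0046) relative to WT, and at -0.31 (adjusted p = 0.0586) without the WT PN35 array. Ednrb, an endothelin receptor of Müller glia, rose by 1.16 ± 0.12 (adjusted p = 3.73e-10), or 0.74 as the mean of its probe sets.

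Lcn2, lipocalin 2, an iron-trafficking acute-phase protein, had the largest rise of the reactive glial list. It was at 5.39, 5.31 and 5.22 at PN13, 5.72 and 5.57 at PN15, 6.59 and 6.95 at PN21, 6.68 at PN28 and 6.36 at PN35, and in WT at 5.40 to 5.51 at PN13-15 and 5.11 to 5.50 at PN21-35. The PN15 and late rd1 arrays were above every WT array, and the PN13 arrays were not. The early rd1 mean differed from WT by -0.0084 ± 0.071 (adjusted p = 0.961), or -0.29 (adjusted p = 0.00537) after centring, and Lcn2 rose by 1.20 ± 0.075 (adjusted p = 1.55e-16) between the windows. Serpina3n, an acute-phase protease inhibitor, was at 6.86, 6.64 and 6.69 at PN13, 8.13 and 7.61 at PN15, 8.27 and 8.51 at PN21, 7.76 at PN28 and 7.84 at PN35. It rose by 0.91 ± 0.11 (adjusted p = 4.15e-09), with a step of 1.14 ± 0.14 from PN13 to PN15, and from PN15 alone the difference was 0.22 (adjusted p = 0.307). Stat3, a transcription factor of cytokine signalling, fell by 0.54 ± 0.064 (-0.35 from PN15 alone).

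**Figure D3:**
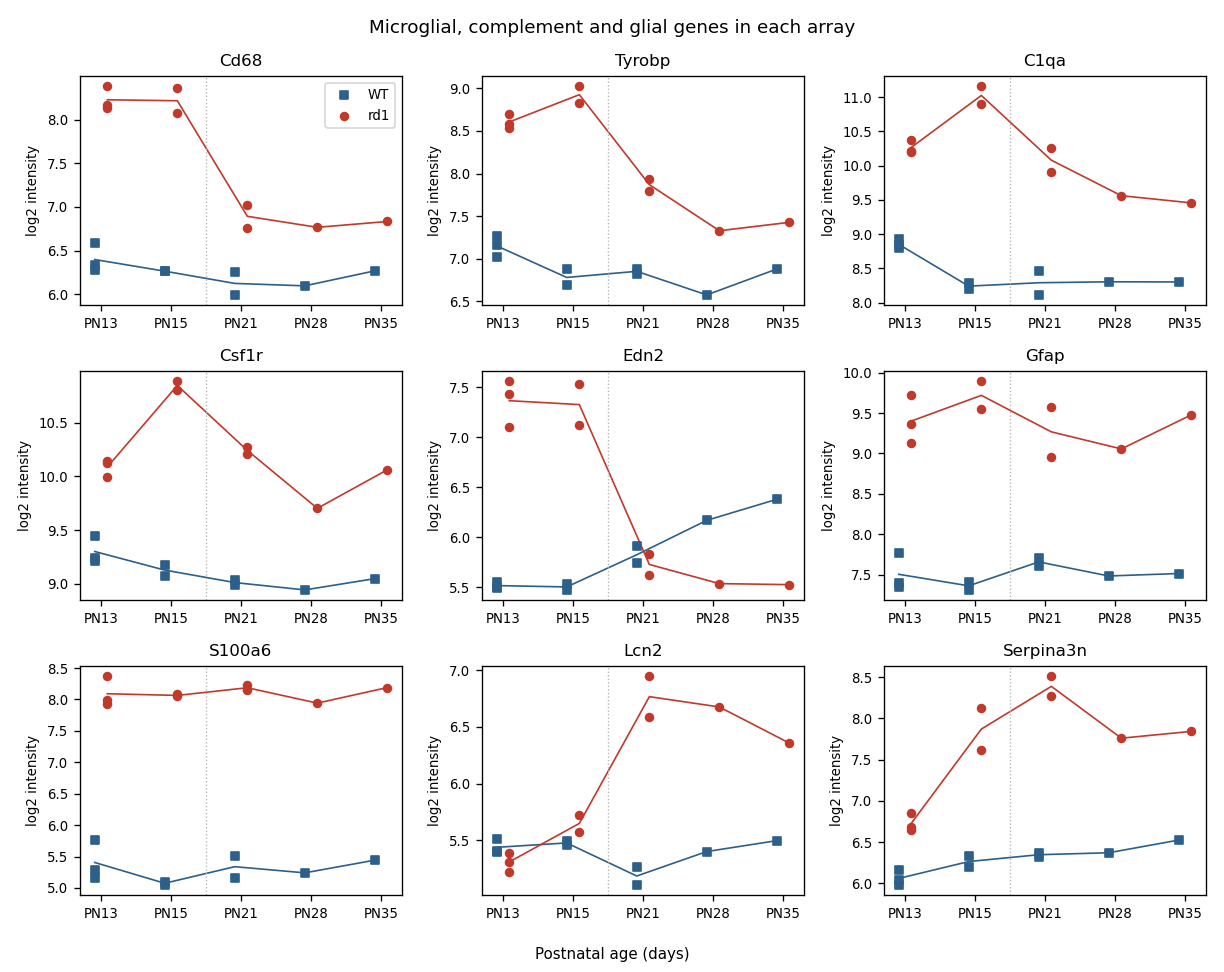
Log2 intensity of 9 microglial, complement and glial genes (vertical axis) in each array by postnatal age in days (horizontal axis), rd1 as red circles and WT as blue squares, with lines through the means of each age and a dotted line between the windows. C1qa and Csf1r are highest at PN15 in rd1, and Edn2 lies at 5.53 to 5.83 in the late arrays. S100a6 stays between 7.92 and 8.37, and Lcn2 is above all WT arrays from PN15 on.

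Of 22 genes of Müller glia 16 rose and 1 fell (median 0.48), where 20.1% of all genes rose and 14.0% fell. In WT 4 rose and 5 fell (3 and 5 after centring), where 14.5% of all genes rose and 15.3% fell. In rd1 11 were higher and 5 lower after centring, and from PN15 alone 7 rose and 0 fell. Kcnj10, the potassium channel of Müller endfeet, was at 8.98, 9.14 and 9.36 at PN13, 10.15 and 9.76 at PN15, 10.29 and 10.32 at PN21, 10.34 at PN28 and 10.21 at PN35. Every late array was above every early one, and the rise was 0.81 ± 0.081 (adjusted p = 7.87e-11), or 0.53 after centring and 0.33 from PN15 alone. Glul, glutamine synthetase, rose by 0.56 ± 0.086 (adjusted p = 1.1e-06) and differed by 0.20 (adjusted p = 0.237) from PN15 alone. Rlbp1, a retinaldehyde-binding protein that pigment epithelium also makes, rose by 0.60 ± 0.08, or 0.32 after centring.

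Of 22 interferon-stimulated and antigen presentation genes 7 rose and 0 fell (median 0.18, in WT 0.16), where 20.1% of all genes rose and 14.0% fell. After centring 4 were higher and 5 lower, and from PN15 alone 2 rose, where 2041 of 18193 genes did. Ifit3, an interferon-induced antiviral gene, had the largest rise. In its promoter, chr19:34583279-34583578, plus strand, capitals mark TTTC, any pair of bases (NN) and TTTC, the core of the interferon-stimulated response element, with matches that start 156 and 122 bases before the start.

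Ifit3: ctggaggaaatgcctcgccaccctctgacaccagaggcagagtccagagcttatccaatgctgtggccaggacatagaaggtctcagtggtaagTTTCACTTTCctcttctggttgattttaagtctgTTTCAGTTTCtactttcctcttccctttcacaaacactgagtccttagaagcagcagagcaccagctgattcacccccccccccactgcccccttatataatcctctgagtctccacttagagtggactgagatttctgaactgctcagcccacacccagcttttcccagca

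This motif was in 8 of 18 promoters of this list (44.4%), against 3.02% of all promoters. Ifit3 was at 8.20, 7.29 and 7.24 at PN13, 7.78 and 8.65 at PN15, 8.36 and 9.35 at PN21, 8.44 at PN28 and 9.04 at PN35, and in WT at 7.17 to 8.80 at PN13-15 and 7.37 to 10.30 at PN21-35. Replicates of one age stood apart, and the windows overlapped in both genotypes. The rise was 0.97 ± 0.23 (adjusted p = 0.000866) in rd1, 0.59 (adjusted p = 0.198) from PN15 alone, and 0.84 ± 0.23 in WT, where it was 0.28 (adjusted p = 0.437) without the PN28 array. The difference between these changes was 0.13 ± 0.33 (adjusted p = 0.832). B2m, the light chain of class I molecules, was at 10.13, 9.82 and 10.37 at PN13, 11.27 and 11.94 at PN15, 11.30 and 11.68 at PN21, 10.92 at PN28 and 11.89 at PN35, with the PN13 arrays the lowest. It rose by 0.74 ± 0.16 (adjusted p = 0.000256), was at 0.74 (adjusted p = 0.167) with the spread between ages in the error, and turned to -0.16 (adjusted p = 0.709) from PN15 alone.

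Mt2, a metallothionein that binds zinc and copper, was at 9.88, 9.62 and 9.99 at PN13, 11.23 and 10.75 at PN15, 11.62 and 11.90 at PN21, 11.11 at PN28 and 11.07 at PN35, and in WT at 8.32 to 8.72 at PN13-15 and 9.00 to 9.57 at PN21-35. All rd1 arrays were above all WT arrays. Mt2 rose by 1.13 ± 0.14 (adjusted p = 7.18e-09), with a step of 1.16 ± 0.18 from PN13 to PN15, and from PN15 alone the difference was 0.43 (adjusted p = 0.0843). Of 17 genes of oxidative stress and metals 8 rose and 1 fell (median 0.25), or 3 and 5 after centring. Of all genes 20.1% rose and 14.0% fell, or 834 and 11208 genes after centring. From PN15 alone 3 of the list rose, where 2041 of 18193 genes did. Gstm1, a glutathione transferase, rose by 0.77 ± 0.081, or 0.49 after centring.

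More genes of inner retinal neurons rose than fell on the deposited scale, where 20.1% of all genes rose and 14.0% fell. From PN15 alone fewer rose in each list, and of 18193 genes 2041 rose and 1159 fell. Among 16 amacrine genes 13 rose and 0 fell (median 0.46), or 7 and 0 from PN15 alone. Among 21 bipolar genes 11 rose and 1 fell (median 0.31), or 5 and 5 after centring and 3 and 0 from PN15 alone. Among 17 ganglion cell genes 7 rose and 2 fell (median 0.079), or 3 and 3 from PN15 alone. Amacrine and ganglion genes served for the centring, so their centred counts were not read.

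Cck, the neuropeptide cholecystokinin of amacrine cells, was at 5.78, 5.78 and 5.94 at PN13, 7.03 and 6.43 at PN15, 7.84 and 8.18 at PN21, 8.31 at PN28 and 8.18 at PN35. Every late array was above every early one, and Cck rose by 1.93 ± 0.11 (adjusted p = 1.27e-17) in rd1 and 1.12 ± 0.11 in WT. The changes differed by 0.81 ± 0.16 (adjusted p = 0.000148), or 0.81 (adjusted p = 0.0781) with the spread between ages in the error. Tacr3, a neurokinin receptor of OFF bipolar cells, was at 8.54, 8.86 and 8.77 at PN13, 9.64 and 9.24 at PN15, 9.98 and 9.97 at PN21, 10.07 at PN28 and 9.90 at PN35, and it rose by 0.97 ± 0.11 (adjusted p = 9.11e-10) (0.54 from PN15 alone). Nyx, the protein nyctalopin of ON bipolar dendrites, rose by 0.87 ± 0.12, or 0.56 from PN15 alone. Stmn2, a growth-associated gene of neurons, fell by 0.43 ± 0.058 in rd1 and by 0.81 ± 0.058 in WT.

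**Figure D4:**
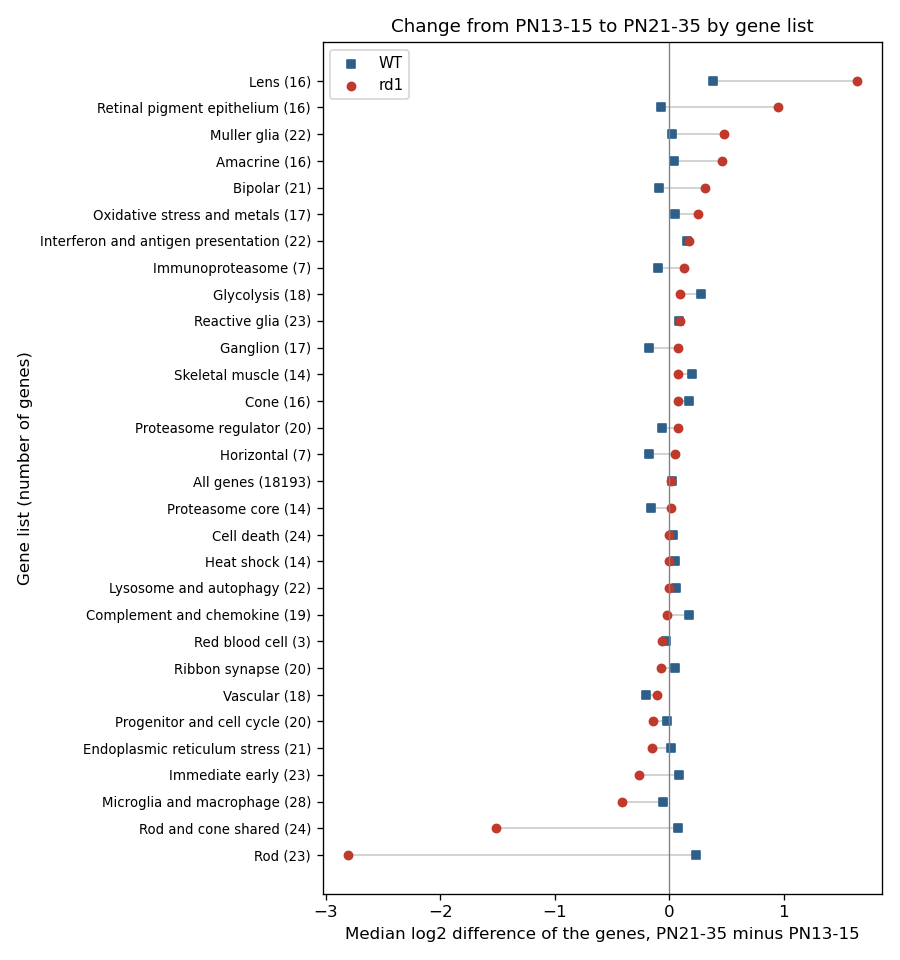
Median log2 difference from PN13-15 to PN21-35 over the genes of each list (horizontal axis) in rd1 (red circles) and WT (blue squares), with the number of genes of each list in brackets (vertical axis). Rod genes stand lowest in rd1 at -2.80 and pigment epithelium and lens genes highest at 0.95 and 1.64, and the median over all genes is 0.018.

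Pigment epithelium genes rose with age and peaked at PN21. Of 16, 12 rose and 0 fell (median 0.95), and 9 rose with PN28 and PN35 alone as the late window. After centring 11 were higher and 2 lower. From PN21 to PN28-35 7 fell (median -0.64), or 5 after centring. Rgr, an opsin of pigment epithelium and Müller glia, was at 7.02, 6.95 and 6.56 at PN13, 7.72 and 8.17 at PN15, 10.33 and 10.26 at PN21, 8.28 at PN28 and 8.54 at PN35. It rose by 2.07 ± 0.17 (adjusted p = 5.35e-13), or 1.13 with PN28 and PN35 alone, and from PN21 to PN28-35 it fell by 1.88 ± 0.25 (adjusted p = 8.88e-06). Rpe65, the isomerase of the visual cycle, rose by 1.53 ± 0.17 and differed by 0.44 (adjusted p = 0.112) with PN28 and PN35 alone. Rdh5, a retinol dehydrogenase of that cycle, rose by 1.63 ± 0.13, or 0.83 with those ages alone.

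Of 16 lens genes 7 rose (median 1.64), 3 without PN21 replicate 1, 1 without the PN35 array and 0 without both. After centring 8 were higher. In WT 0 rose and 0 fell (median 0.38), and the change in rd1 was above that in WT for 0 genes and below it for 0. Crygs, a lens crystallin, was at 6.10, 5.55 and 5.42 at PN13, 6.72 and 5.52 at PN15, 11.45 and 5.84 at PN21, 8.19 at PN28 and 10.68 at PN35. PN21 replicate 1 and the PN35 array were the highest.

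**Figure D5:**
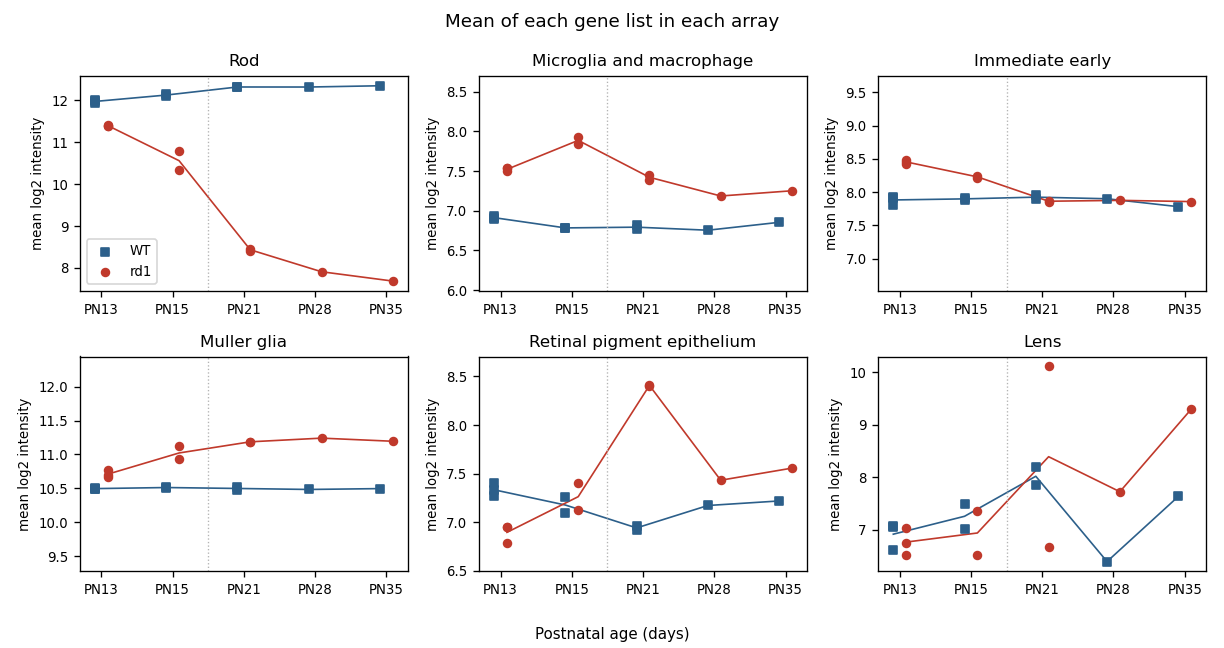
Mean log2 intensity over the genes of 6 lists (vertical axis) in each array by postnatal age in days (horizontal axis), rd1 as red circles and WT as blue squares, with lines through the means of each age and a dotted line between the windows. The pigment epithelium mean is highest in the PN21 rd1 arrays (8.40 to 8.41), and the lens mean in PN21 replicate 1 and at PN35.

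Ptgds, prostaglandin D synthase, was at 10.05, 9.92 and 9.82 at PN13, 10.80 and 11.06 at PN15, 12.57 and 12.65 at PN21, 11.55 at PN28 and 12.22 at PN35, and it rose by 1.92 ± 0.10 (adjusted p = 1.79e-18). It was highest at PN21, as the pigment epithelium genes were, and their part in its rise was not tested. Nupr1, a stress-induced chromatin protein, was at 7.36, 6.93 and 6.92 at PN13, 7.08 and 7.15 at PN15, 8.76 and 8.43 at PN21, 9.19 at PN28 and 9.54 at PN35, highest at PN28 and PN35. It rose by 1.89 ± 0.27 (adjusted p = 3.89e-07) in rd1 and differed by 0.54 ± 0.27 (adjusted p = 0.136) in WT. Pvalb, the calcium buffer parvalbumin, rose by 1.65 ± 0.10 in rd1 and 1.34 ± 0.10 in WT. Gja1, connexin 43, rose by 1.22 ± 0.15, and its change was above that in WT by 2.20 ± 0.21 (adjusted p = 5.82e-11), or 1.44 as the mean of its probe sets.

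Of 18 vascular genes 7 fell and 4 rose (median -0.11), where 14.0% of all genes fell and 20.1% rose. Without PN13 replicate 3, 2 rose. After centring 11 were lower and 2 higher (median -0.39, against -0.26 over all genes). In WT 9 fell and 2 rose (15.3% and 14.5% of all genes). Cldn5, the claudin of endothelial tight junctions, fell by 0.93 ± 0.079 in rd1 and 0.78 ± 0.079 in WT, the latter -0.43 with PN21 alone as the late window. Of 20 progenitor and cell cycle genes 5 fell and 0 rose in rd1 (median -0.14), where 14.0% of all genes fell and 20.1% rose. From PN15 alone 1 fell, where 1159 of 18193 genes did. After centring 18 were lower and 0 higher (median -0.42).

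Of 18 genes of glycolysis and its carriers 7 rose and 5 fell in rd1 (median 0.096), and 15 rose and 1 fell in WT (median 0.27). After centring 4 were higher and 10 lower in rd1 (median -0.18), and 13 higher and 0 lower in WT. The change in rd1 was below that in WT for 7 genes and above it for 2, or 12 and 0 after centring. Ldha, the lactate dehydrogenase subunit abundant in photoreceptors, was at 13.09, 12.99 and 12.91 at PN13, 12.57 and 12.57 at PN15, 12.35 and 12.34 at PN21, 12.27 at PN28 and 12.32 at PN35, and in WT at 13.00 to 13.07 at PN13-15 and 12.94 to 13.00 at PN21-35. Every late rd1 array was below every other array compared. Ldha fell by 0.51 ± 0.039 (adjusted p = 7.02e-14), or -0.25 from PN15 alone. Pfkm, a phosphofructokinase, rose by 0.59 ± 0.071, or 0.31 after centring.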

How the data were processed

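The submitters' processing notes name RMA for these arrays, with no version, and whether all arrays were normalized together is not given in the sources used here. The deposited values were linear intensity, 1 per probe set and array, and log2 was taken here. Of 45037 probe sets, 34945 named 1 gene in the platform annotation, 932 several and 9160 none. The probe set with the highest mean stood for each of 18193 genes. Array medians lay between 127 and 134, and rd1 replicate pairs correlated at 0.994 to 0.997 over genes, which are not independent replicates. The number of arrays limits the precision.

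limma 3.58.1 in R 4.3.3 fitted 1 mean per genotype and age over all 54 arrays (30 residual degrees of freedom), with moderation by an intensity trend. Windows were averaged by array, and p-values were adjusted over all genes. The fit was tested on simulated data for the late minus early rd1 comparison, with 200 of 18193 genes changed. It recovered 100% of changes of 1 and of 2 on the log2 scale, with 8 false calls among the unchanged genes. Simulated arrays, also those of PN28 and PN35, varied with each gene's spread within replicated ages. Spread between ages, other tissue and shifts of scale were not simulated. Named genes followed a rule: the largest changes without overlap between windows, up to 4 genes per list, and the largest differences between genotypes and between ages. The mutated gene Pde6b and Fos were always named. Other list members named for their role were picked with their values known. Lists and comparisons were chosen with earlier results of these data known. A gene the rule names is not analysed here. Alternatives covered scaling, filtering, probe set choice, moderation, weights, the error term, the windows, a replicate block and the omission of arrays. The PN28 and PN35 window and the omission of both arrays high in lens genes were added after the data were seen. "With the spread between ages in the error" refers to a fit with 1 mean per genotype and window. Gene positions and promoters are from RefSeq (GRCm38.p6).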

Additional observations from a re-analysis of the deposited data

Results flagged for a closer look

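Of 58 means of gene lists over the arrays of a window, 2 held an array far from the others, where chance gives about 1 in 20 groups, and the windows mix ages. The mean log2 intensity of the cell death genes was 7.27 in PN21 replicate 2 of rd1, with the nearest late array at 7.23. The mean of the red blood cell genes was 5.87 in PN21 replicate 1 of rd1, with the nearest late array at 5.70.

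The change from PN13-15 to PN21-35 differed between rd1 and WT for 4465 genes at an adjusted p under 0.05 by limma. The largest differences below 0 were those of the rod genes Nrl at -4.60, Gnat1 at -4.47, Cnga1 at -4.42, Slc24a1 at -4.38 and Pde6b at -4.37. The largest above 0 were those of Ttr, which encodes transthyretin, at 2.22, Gja1 at 2.20, the pigment cell genes Dct at 2.11 and Pmel at 1.99, and Rgr at 1.94. Measured to PN21-35 these include the PN21 rd1 arrays, in which the pigment epithelium genes were highest.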

How the results depend on the processing

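Centring each array on genes of amacrine and ganglion cells gave 834 genes higher and 11208 lower for the change in rd1, 1116 higher for WT, 404 higher and 6605 lower for the difference between these changes, 73 and 14074 from PN13 to PN15, 298 higher from PN15 to PN21, 47 and 21 from PN21 to PN28-35, 272 and 12129 for rd1 against WT at PN13-15, and 712 and 15024 at PN21-35. Of the genes it called for the change in rd1, 3387 were shared in the same direction with the deposited scale and 42 in the opposite one. It turned the differences of Hk2 to -0.23, Hspa8 to -0.24, Nr4a3 to -0.078 and Opn1sw to -0.22. PN15 alone as the early window gave 2041 and 1159 for rd1, 739 and 1154 for WT, and 851 and 602 for their difference, and turned B2m to -0.16 and Ctss to -0.26. PN21 alone as the late window gave 1374 higher for WT. With 1 mean per genotype and window, 1618 fell in rd1, 1853 and 1044 differed between the changes, and 1242 and 914 between rd1 and WT at PN13-15. From PN15 to PN21 array weights gave 779 and 577, and the compared arrays alone 459 and 477. From PN21 to PN28-35 quantile normalization gave 54 higher, array weights 15 higher, and the compared arrays alone 0 higher and 27 lower in limma (277 and 561 at an unadjusted p under 0.05). Leaving out 1 array gave 330 to 1315 higher and 1002 to 1792 lower from PN13 to PN15, 359 to 1783 and 477 to 857 from PN15 to PN21, and 2 to 93 and 37 to 131 from PN21 to PN28-35. For the change in rd1 it gave 3240 to 3828 and 2109 to 2741. The replicate block gave 3539 and 2525 for the change in rd1, and replicate numbers did not pair the arrays (correlations of deviations from -0.32 to 0.095). Single arrays at PN28 and PN35, the high pigment epithelium and lens genes of late arrays and the unknown number of animals per array limit what the windows show.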
